A study of Arabidopsis thaliana with 4 samples.

Results

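The genes described here are the NAC transcription factor genes that carry a NAC number as their name in an RNA-seq table of germinating Arabidopsis thaliana. They were taken by name alone: every feature whose name is NAC followed by a number, with or without the prefix A or AT, except the locus AT4G27410, which was not included. This gave 75 genes of the 23932 features in the table, and 74 of the 75 passed the filter on low values that 22646 features passed, at least 1 RPKM (a read count divided by exon length and by library size) in both value columns of at least 1 sample. NAC024 did not pass. Seeds of a line that overexpresses ZFP3, a C2H2 zinc finger protein, and of the Col-0 wild type were germinated on medium with 5 µM estradiol, which all 4 samples had, with or without 2.5 µM abscisic acid (ABA). The 4 groups, each of 1 sample of whole seedlings, were ZFP3ox with ABA, ZFP3ox without ABA, wild type with ABA and wild type without ABA. The 2 samples with ABA were harvested at 84 h and the 2 without ABA at 36 h, so ABA and time on the medium cannot be told apart in these data. The promoter that drives ZFP3 and the number of independent lines are not given in the labels.

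NAC proteins are plant-specific transcription factors. They share a DNA-binding domain at the N-terminal end, bind as dimers, and differ in the rest of the protein, which activates or represses transcription. Different members switch on vessel and fibre differentiation, mature the root cap, build the phloem, time senescence, and respond to drought, ABA and stress of the endoplasmic reticulum or mitochondria. Some members are anchored in a membrane and enter the nucleus only when released. In young seedlings the first vessels differentiate and the root cap matures, and ABA holds germination back.

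Each sample has 2 value columns in the table, called column set 1 and column set 2 here. Which libraries or runs they stand for is not stated in the labels, so ratios were taken within a set, as log2 of RPKM + 1, and then averaged over both sets. A gene was counted as higher or lower when this mean reached 2-fold (1 on the log2 scale). With 1 sample a group there is no replicate check and no p-value for these ratios, and the distance between the sets is the only spread that can be given. That distance is large: over the 75 genes the log2 levels of 1 sample in both sets correlated at 0.399 to 0.508, whereas different samples of the same set correlated at 0.664 to 0.816 in set 1 and 0.830 to 0.931 in set 2. The steps between low RPKM values in set 1 correspond to about 2625000 reads in ZFP3ox with ABA, 2990000 in ZFP3ox without ABA, 3195000 in wild type with ABA and 4080000 in wild type without ABA, with 61.9% to 66.9% of low values within 0.1 of a whole read, against 20% for values with no steps. At that depth the median NAC gene had about 42.7 to 59.5 reads a sample in set 1. The depth of set 2 is unknown. ZFP3 itself was at 85.4 and 176 RPKM in the ZFP3ox samples with and without ABA, against 15.7 and 8.66 RPKM in the wild-type samples with and without ABA in set 1, so the samples go with their labels. In both sets and both genotypes, the summed RPKM of 4 seed storage and oil body genes was higher with ABA than without, and that of 3 photosynthesis genes was lower. These markers also differed between the genotypes with ABA. The 3 photosynthesis genes summed to 1200 RPKM in ZFP3ox against 96.3 RPKM in wild type in set 1 and to 343 against 24.7 RPKM in set 2, and all 3 were past 2-fold higher in ZFP3ox, with a median log2 ratio of 3.55. Of the 4 seed storage and oil body genes, 3 were past 2-fold lower in ZFP3ox with ABA in the mean of both sets, with a median of -1.72, and OLEO2 was at 0.16. With ABA the 4 summed to 548 RPKM in ZFP3ox against 1837 RPKM in wild type in set 1. In set 2 this sum went the other way, at 369 RPKM in ZFP3ox against 309 RPKM in wild type. Without ABA 0 of these 7 genes were past 2-fold between the genotypes. No gene of these marker lists was at 0. The part of these differences between the samples in the NAC ratios below was not tested.

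NAC genes were mostly transcribed at a moderate to low level. Their median in set 1 was 14.1 RPKM in ZFP3ox with ABA, 9.75 RPKM in ZFP3ox without ABA, 11.1 RPKM in wild type with ABA and 7.32 RPKM in wild type without ABA, against medians over all features of 15.6, 13.1, 13.6 and 10.5 RPKM in those samples. In set 2 their medians were 3.02, 2.53, 3.22 and 2.91 RPKM in the same samples, against 4.03, 3.26, 4.05 and 4.19 RPKM over all features. The median NAC gene stood at percentile 31.8 to 41.8 of all features in the 8 columns. By the mean log2(RPKM + 1) over all columns the highest were NAC049 (4.88), NAC045 (4.87), NAC084 (4.78), NAC010 (4.69) and NAC070 (4.28).

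**Figure D1:**
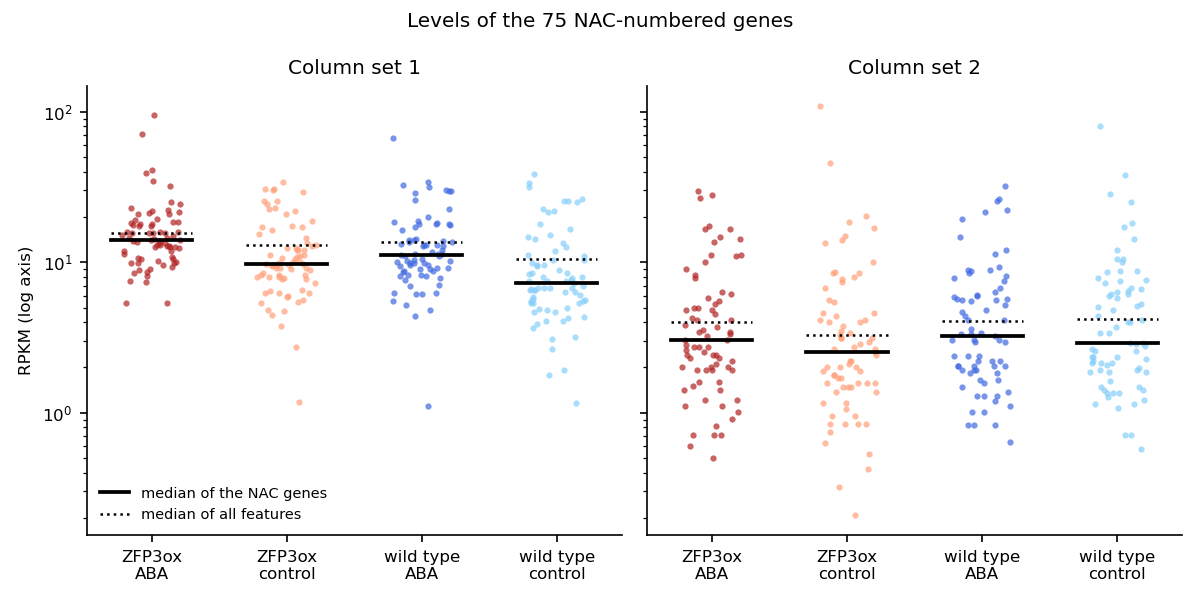
RPKM of the 75 NAC genes (log axis) in the 4 samples, with column set 1 in the left panel and column set 2 in the right. Points are genes, the thick line is their median and the dotted line the median of all 23932 features. The NAC median lies below the dotted line in all 8 columns.

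NAC045, a factor of the developing phloem sieve elements, was the highest NAC gene in 3 samples of set 1. It had 95.6 RPKM in ZFP3ox with ABA, 34.0 RPKM in ZFP3ox without ABA, 67.1 RPKM in wild type with ABA and 31.7 RPKM in wild type without ABA in set 1, and 14.8, 16.9, 12.1 and 18.2 RPKM in these samples in set 2. Both ABA samples were the high ones in set 1 and the low ones in set 2. Exons of NAC045 overlap those of GSTF11 on the opposite strand over 934 bases. The authors matched reads by strand, per their deposited settings.

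NAC070, also called BRN2, a factor of root cap maturation, had the largest difference between the sets among the NAC genes higher in set 2. In set 1 it had 10.8 RPKM in ZFP3ox with ABA, 4.72 RPKM in ZFP3ox without ABA, 6.22 RPKM in wild type with ABA and 4.85 RPKM in wild type without ABA. In set 2 it had 28.1 and 109 RPKM in ZFP3ox with and without ABA, and 26.2 and 80.6 RPKM in wild type with and without ABA, the highest NAC value in both samples without ABA. Its mean level was 2.82 higher on the log2 scale in set 2 than in set 1, at percentile 99.9 of all features, whereas the median of all features was -1.64 and that of the NAC genes -1.52. Its ABA ratio was -1.91 in ZFP3ox and -1.58 in wild type in set 2, but 1.04 and 0.30 in these genotypes in set 1, so no direction can be given for it. NAC015 (BRN1), which acts with BRN2 in the root cap, lay between 3.17 and 5.40 RPKM in set 1 and between 0.83 and 1.21 RPKM in set 2. NAC070, NAC075, NAC049, NAC038 and NAC076 were the 5 of 75 genes with a higher mean level in set 2 than in set 1.

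**Figure D2:**
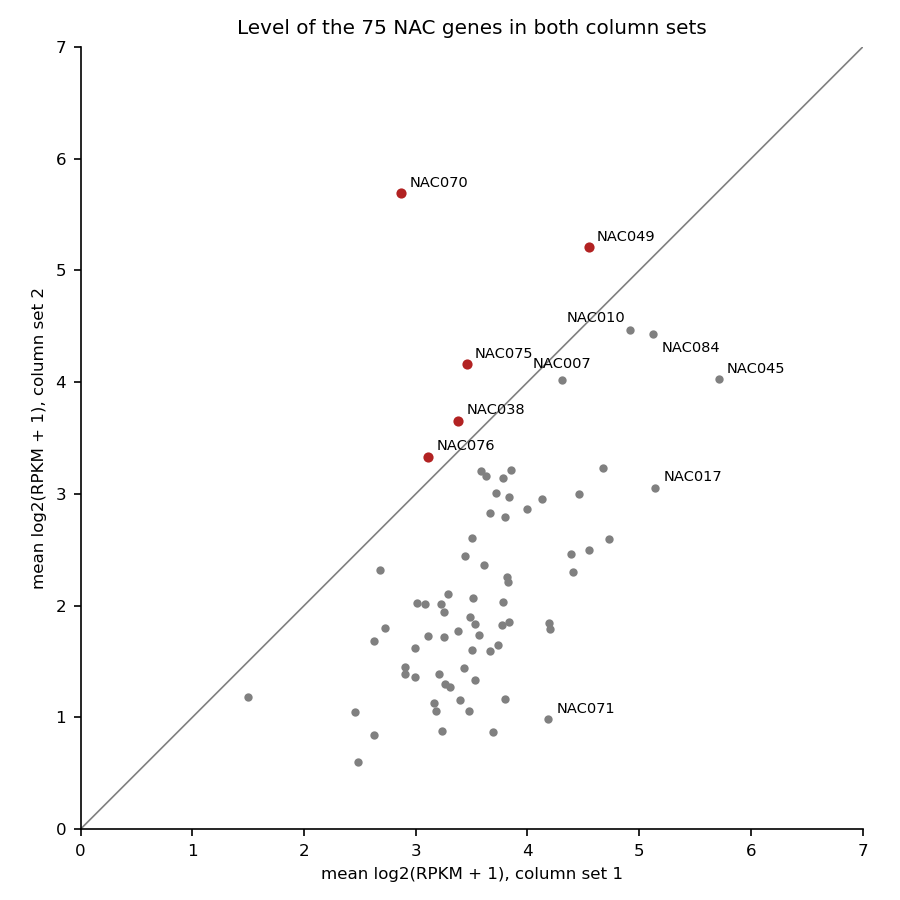
Mean log2(RPKM + 1) over the 4 samples in column set 1 (x axis) and column set 2 (y axis) for the 75 NAC genes, with the line of equal level. The 5 genes above the line are in red, and NAC070 is 2.82 above it.

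Few NAC genes reached 2-fold in any comparison, and their share was near that of all features. In ZFP3ox over wild type without ABA, 1 of 74 NAC genes was higher and 0 were lower, where 0.954% and 1.58% of all features were. With ABA, 3 were higher and 0 lower in ZFP3ox, against 2.7% and 2.03% of all features. For ABA over control in ZFP3ox, 3 were higher and 1 lower, against 4.55% and 2.23% of all features. In wild type 4 were higher with ABA and 1 lower, against 4.65% and 2.86% of all features. In each set separately, 2-fold was reached by 1 NAC gene in 1 comparison: NAC105, lower with ABA in ZFP3ox, where 1.02% of all features were higher and 0.729% lower by that rule. The shares of all features higher and lower by it were 1.46% and 1.37% for ABA in wild type, 0.631% and 0.503% for ZFP3ox over wild type with ABA, and 0.137% and 0.181% without ABA.

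The median ratios of the NAC genes over both sets were small and near those of all features. For ABA over control they were 0.32 in ZFP3ox and 0.25 in wild type on the log2 scale, where the medians of all features were 0.21 and 0.15. In the separate sets the NAC medians were 0.51 in set 1 and 0.19 in set 2 in ZFP3ox, and 0.50 and -0.12 in wild type. The medians of all features were 0.22 in set 1 and 0.18 in set 2 in ZFP3ox, and 0.31 and -0.03 in wild type. Median-of-ratios scaling, which centres the columns by its construction, brought the medians of all features over both sets to 0.018 and -0.0037. For ZFP3ox over wild type the NAC medians were 0.10 with ABA and 0.04 without, against 0.05 and 0.01 over all features. The 3 medians other than ABA in ZFP3ox changed sign between the sets, for example -0.12 in set 2 and 0.50 in set 1 for ABA in wild type. In ZFP3ox 37 of 74 NAC genes (50%) were higher with ABA in both sets and 3 (4.05%) were lower in both, where 45.3% and 17.0% of all features were. In wild type these counts were 26 (35.1%) and 7 (9.46%), against 34.8% and 18.2% of all features. The NAC shares lower with ABA in both sets were thus below those of all features, which was not tested. For ZFP3ox over wild type the counts were 20 (27.0%) and 11 (14.9%) with ABA, against 31.3% and 22.3% of all features. Without ABA they were 14 and 14 (18.9% each), against 21.0% and 20.5%.

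**Figure D3:**
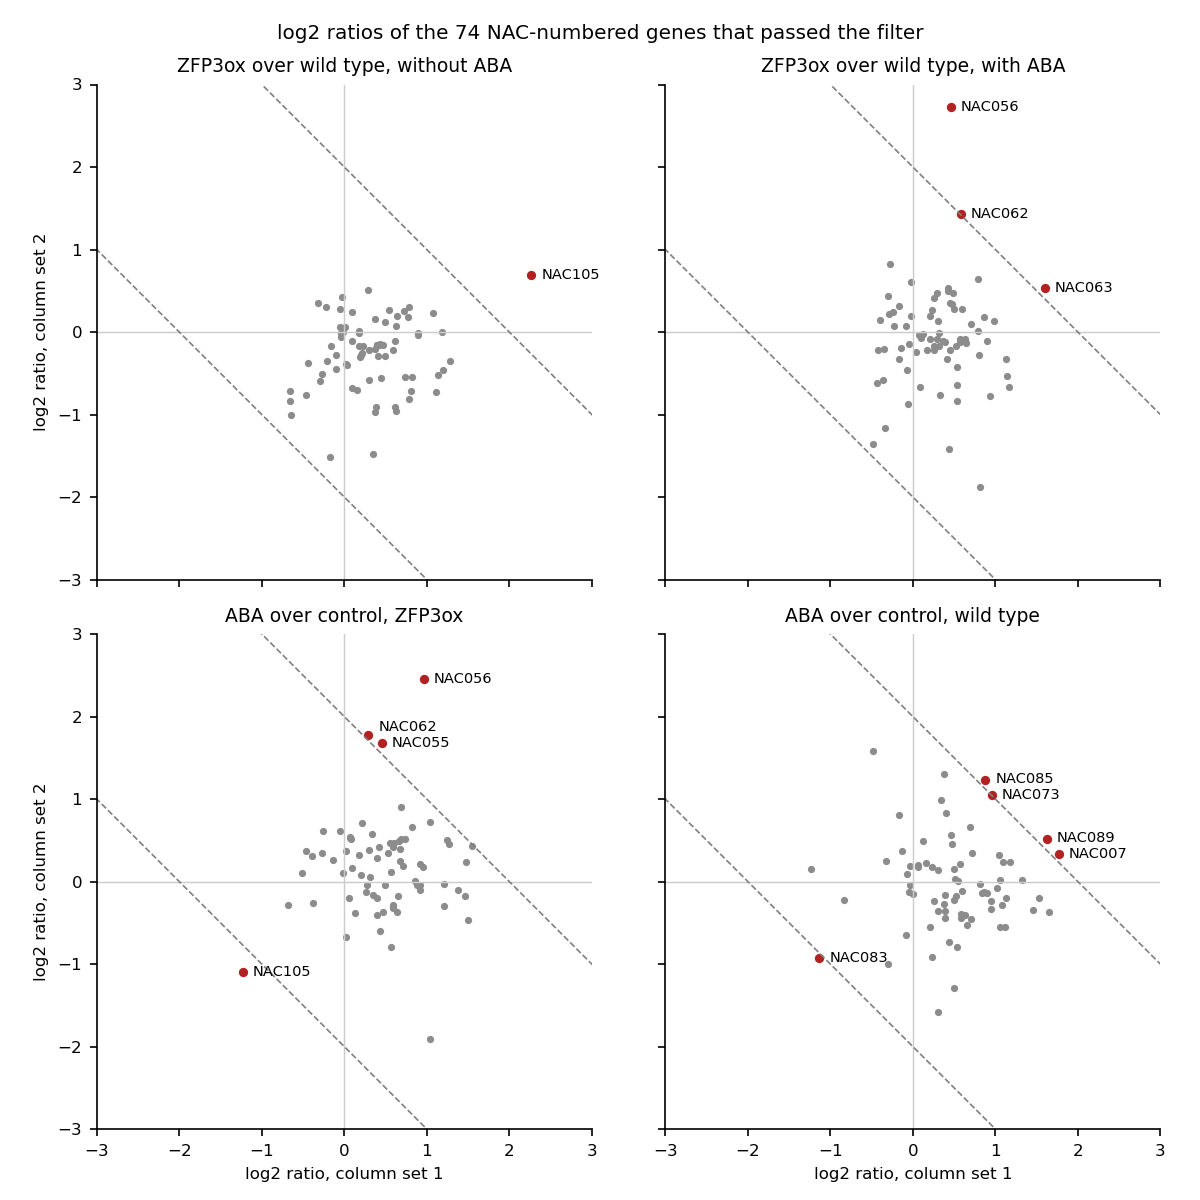
log2 ratio in column set 1 (x axis) and column set 2 (y axis) of the 74 NAC genes that passed the filter, in the 4 comparisons. Dashed lines mark a mean of 2-fold, and genes past it are red and named. The points spread widely around 0 in both directions, and NAC105 and NAC056 lie farthest past the lines. For ZFP3ox over wild type the ratios of the sets correlated at 0.21 without ABA and 0.05 with ABA (all features, 0.015 and 0.17). For ABA over control they correlated at 0.06 in ZFP3ox and 0.01 in wild type (all features, 0.27 and 0.28).

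The fit over all 4 samples called no NAC gene. This was an additive limma model of genotype and ABA on the mean of both sets, with 1 residual degree of freedom and Benjamini-Hochberg adjustment over 22646 features. With 1 sample a group, that degree of freedom holds the departure of the 4 samples from the additive model. The SE and p of this fit, here and below, thus do not measure a spread between replicates. For the ABA effect it called 147 features (0.649%) at an adjusted p under 0.05 and 0 of the 74 NAC genes. At an unadjusted p under 0.05, 13 NAC genes were higher with ABA and 1 was lower, 14 in all, where 19.1% of all features had such a p. The lowest adjusted p among the NAC genes, by limma, was 0.165 for NAC056, and over the 8 alternative settings this lowest value lay between 0.0695 and 0.191. For the genotype effect limma called 2 features (0.00883%) and 0 NAC genes. NAC056 and NAC061, both higher in ZFP3ox, were the only NAC genes at an unadjusted limma p under 0.05. Of all features 7.29% had such a p.

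The proximal promoters of 5 genes are shown because the results below turn on these genes. NAC105 was past 2-fold in each set of 1 comparison, NAC056 had the largest ratios, and NAC073, NAC083 and NAC085 are the NAC genes in the authors' deposited lists of ABA-responsive genes. The last 4 were chosen for printing after their values were seen. Each window runs from 250 bases before to 50 bases after the annotated gene start in RefSeq TAIR10.1, 5′ to 3′ on the gene's strand. Capitals mark the ABRE core ACGTG, bound by ABA-responsive bZIP factors, the NAC recognition sequence CATGTG and the W box core TTGAC, bound by WRKY factors, each searched on both strands. None of these letters overlap between motifs.
NAC105 (AT5G66300), chr5:26481479-26481778, minus strand: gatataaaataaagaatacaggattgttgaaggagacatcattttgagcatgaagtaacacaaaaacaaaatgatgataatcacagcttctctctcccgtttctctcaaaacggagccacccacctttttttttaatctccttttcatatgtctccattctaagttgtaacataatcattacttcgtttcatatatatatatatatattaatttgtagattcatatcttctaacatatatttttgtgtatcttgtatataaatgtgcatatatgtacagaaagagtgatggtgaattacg
NAC056 (AT3G15510), chr3:5243182-5243481, plus strand: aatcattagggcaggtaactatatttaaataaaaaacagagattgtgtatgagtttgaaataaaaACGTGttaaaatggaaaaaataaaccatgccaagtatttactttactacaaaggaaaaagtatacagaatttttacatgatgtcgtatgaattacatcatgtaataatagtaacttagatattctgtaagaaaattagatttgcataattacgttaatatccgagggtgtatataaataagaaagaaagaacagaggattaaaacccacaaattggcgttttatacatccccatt
NAC073 (AT4G28500), chr4:14082410-14082709, plus strand: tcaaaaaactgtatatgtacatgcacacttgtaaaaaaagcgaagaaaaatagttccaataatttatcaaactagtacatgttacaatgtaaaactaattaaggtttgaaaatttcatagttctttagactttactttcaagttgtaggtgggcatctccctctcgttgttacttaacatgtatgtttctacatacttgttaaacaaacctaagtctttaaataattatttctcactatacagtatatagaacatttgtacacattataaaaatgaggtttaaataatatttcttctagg
NAC083 (AT5G13180), chr5:4196006-4196305, plus strand: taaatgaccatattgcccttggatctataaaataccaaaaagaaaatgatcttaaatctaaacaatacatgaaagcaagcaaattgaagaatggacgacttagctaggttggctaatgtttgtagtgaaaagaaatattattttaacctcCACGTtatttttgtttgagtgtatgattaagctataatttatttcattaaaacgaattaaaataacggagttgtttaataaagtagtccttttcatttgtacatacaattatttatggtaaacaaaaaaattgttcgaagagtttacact
NAC085 (AT5G14490), chr5:4672909-4673208, minus strand: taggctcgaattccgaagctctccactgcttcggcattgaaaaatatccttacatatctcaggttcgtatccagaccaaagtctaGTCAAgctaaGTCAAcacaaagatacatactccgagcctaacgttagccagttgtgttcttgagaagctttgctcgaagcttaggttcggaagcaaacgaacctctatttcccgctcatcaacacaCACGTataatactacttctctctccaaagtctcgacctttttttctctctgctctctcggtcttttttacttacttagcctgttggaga
The ABRE core began 185 bases before the start in NAC056, 100 bases before it in NAC083 and 39 bases before it in NAC085. NAC085 also had 2 W box cores, at 165 and 155 bases before the start. NAC105 and NAC073 held none of these letters in the window. Over the promoters of the 75 NAC genes, 28 (37.3%) held the ABRE core, against 26.7% of the 27431 promoters of protein-coding genes with the same window. The NAC recognition sequence stood in 10 (13.3%), against 12.9%, and the W box core in 34 (45.3%), against 50.5%. A match is a description of the letters only.

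The vessel and secondary wall factors held 12 of the tested NAC genes, the 2 root cap factors above included, and 5 of their ratios were past 2-fold. Of the 12, 1 was higher in ZFP3ox without ABA (0.954% of all features were) and 1 was lower with ABA in ZFP3ox (2.23%). In wild type 2 were higher (4.65%) and 1 was lower (2.86%) with ABA. No group of genes here or below was tested against the share of all features. The leading factor of the 12 was NAC105 (VND3, AT5G66300, chromosome 5), a member of the VND group that turns cells into xylem vessels. NAC105 had 12.6 RPKM in ZFP3ox with ABA, 30.8 RPKM in ZFP3ox without ABA, 11.7 RPKM in wild type with ABA and 5.6 RPKM in wild type without ABA in set 1. In set 2 it had 5.75, 13.4, 6.08 and 7.88 RPKM in these samples. ZFP3ox without ABA was the highest sample in both sets, and the order of the other samples differed between the sets. Its ratio of ZFP3ox over wild type without ABA was 2.27 in set 1 and 0.69 in set 2, mean 1.48. With ABA the genotype ratio was 0.10 in set 1 and -0.07 in set 2. Its ABA ratio was -1.23 and -1.09 in ZFP3ox, mean -1.16, and 0.94 and -0.33 in wild type, mean 0.31. The genotype ratio with ABA minus that without was thus -2.17 and -0.76, mean -1.47, which is under the 4-fold used for such a difference. About 129 reads underlie its set 1 value in ZFP3ox without ABA and about 32 that in wild type without ABA. The promoter printed above held none of the 3 motifs.

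NAC007 (VND4), another VND factor, was higher with ABA in wild type. It had 25.3 and 16.4 RPKM in ZFP3ox with and without ABA, and 32.8 and 8.88 RPKM in wild type with and without ABA in set 1. In set 2 it had 14.2 and 10 RPKM in ZFP3ox with and without ABA, and 21.7 and 17.1 RPKM in wild type with and without ABA. Each ABA sample was above its control in both sets, with a ratio in wild type of 1.77 in set 1 and 0.33 in set 2, mean 1.05, and a mean of 0.53 in ZFP3ox.

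NAC073 (SND2), a factor that acts on cellulose and secondary wall genes, was higher with ABA in wild type in both sets, by 0.96 and 1.05, mean 1.0. It had 17.9 and 13.3 RPKM in ZFP3ox with and without ABA and 14.0 and 6.72 RPKM in wild type with and without ABA in set 1, and in set 2 2.02 and 1.47 RPKM in ZFP3ox against 4.14 and 1.49 RPKM in wild type. Its mean ABA ratio in ZFP3ox was 0.34.

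NAC083 (VNI2), which interacts with the vessel factor VND7 and represses its targets, was the 1 NAC gene lower with ABA in wild type. In set 1 it had 13.8 and 22.7 RPKM in ZFP3ox with and without ABA, and 11.1 and 25.5 RPKM in wild type with and without ABA. Set 2 gave 2.42 and 3.16 RPKM in ZFP3ox with and without ABA, and 1.47 and 3.69 RPKM in wild type with and without ABA. The ABA sample was the lower one in both genotypes and both sets. Its ratio in wild type was -1.13 and -0.93, mean -1.03, and in ZFP3ox -0.68 and -0.28, mean -0.48. The limma ABA effect was -0.76 (SE 0.25) with an adjusted p of 0.195.

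The other 6 xylem factors, NAC010 (SND3), NAC012 (SND1), NAC066 (NST2), NAC075, NAC076 (VND2) and NAC101 (VND6), stayed within 2-fold in all comparisons. NAC101, a master regulator of metaxylem vessels, and NAC012, of fibres, show how far the sets can part. NAC012 was higher in ZFP3ox by 1.13 with ABA and by 1.19 without ABA in set 1, but its ratios were -0.33 and -0.46 in set 2. Of 6 genes downstream of VND and NST factors (CESA4, CESA7, CESA8, XCP1, XCP2 and MYB46), 1 was past 2-fold in any of the 4 comparisons. It was XCP1, a protease of dying vessel cells, with 7.44 RPKM in wild type with ABA against 22.2 RPKM in wild type without ABA in set 1, 1.47 against 4.26 RPKM in set 2, and a mean ratio of -1.27. For ABA in wild type 2.86% of all features were lower by 2-fold. In ZFP3ox over wild type without ABA, where NAC105 was higher, the median of these 6 was 0.11. The summed RPKM of 5 xylem genes was 78.8, 57.3, 50.8 and 60.1 in ZFP3ox with ABA, ZFP3ox without ABA, wild type with ABA and wild type without ABA in set 1, and 32.9, 25.4, 25.6 and 32.3 in set 2. Fewer vessel cells and less RNA per cell cannot be told apart in whole seedlings.

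**Figure D4:**
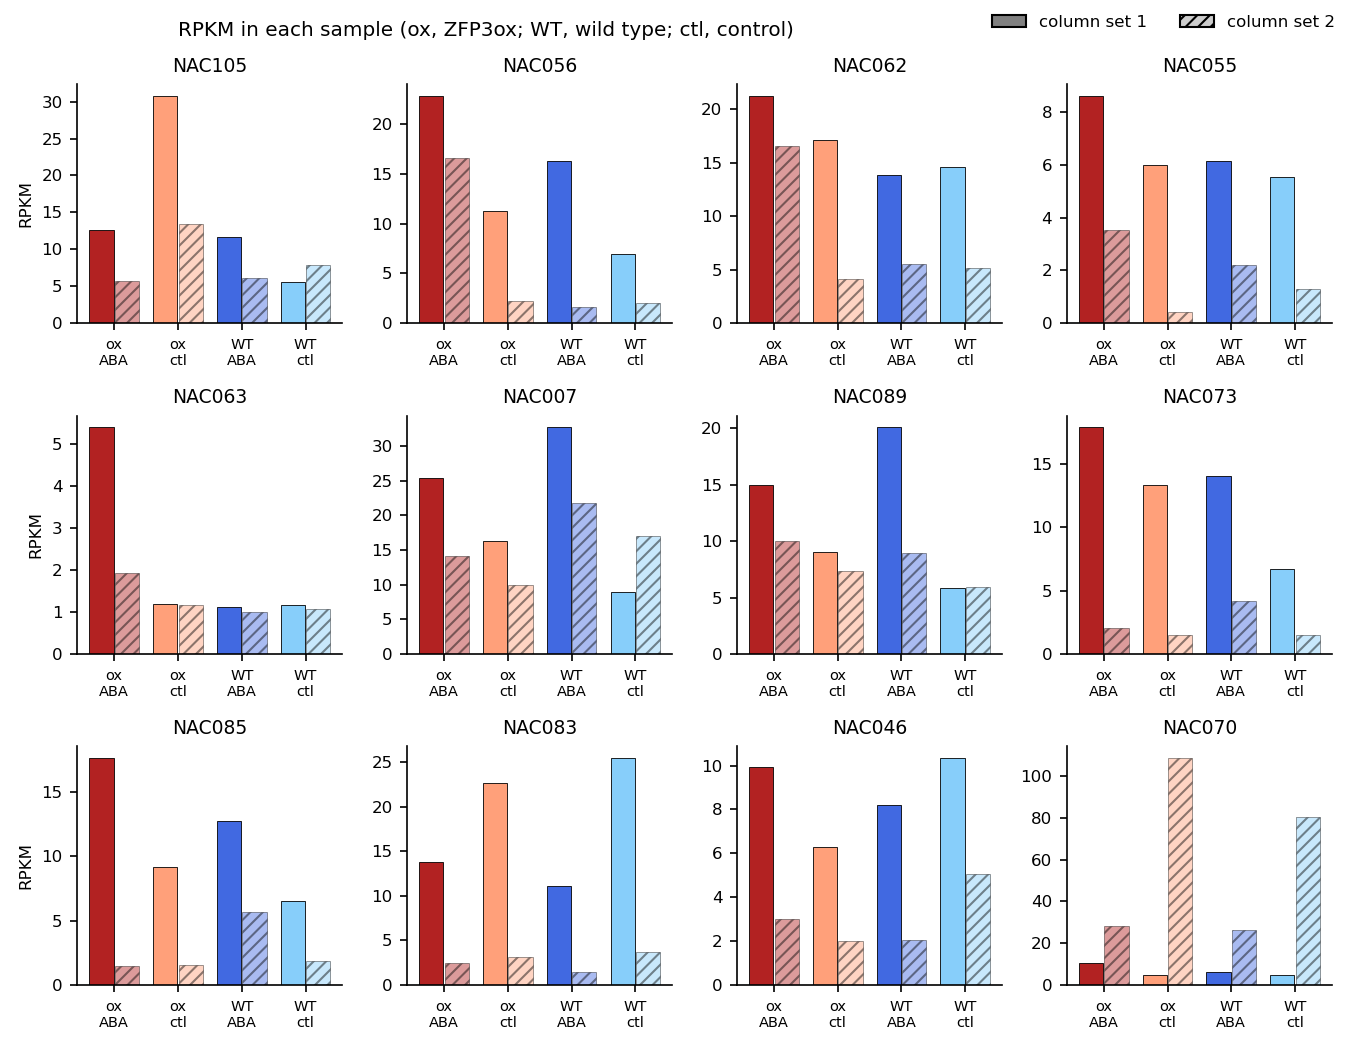
RPKM of the 10 NAC genes past 2-fold in at least 1 comparison, and of NAC046 and NAC070, in each sample, with plain bars for column set 1 and hatched bars for column set 2. NAC105 is highest in ZFP3ox without ABA in both sets, NAC056 and NAC063 are highest in ZFP3ox with ABA in both sets, and NAC070 is high in set 2 only.

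Among factors of seed tissue, NAC056 (NARS1, AT3G15510, chromosome 3), known from seed coat and embryo development, gave the largest mean ratios of any NAC gene. NAC056 had 22.9 and 11.3 RPKM in ZFP3ox with and without ABA, and 16.4 and 6.91 RPKM in wild type with and without ABA in set 1. The set 2 values were 16.6 and 2.21 RPKM in ZFP3ox with and without ABA, and 1.66 and 2.06 RPKM in wild type with and without ABA. ZFP3ox with ABA was the highest sample in both sets, and in set 2 it alone stood apart. The ratio of ZFP3ox over wild type with ABA was 0.46 in set 1 and 2.73 in set 2, mean 1.59, against a mean of 0.35 without ABA. Its ABA ratio in ZFP3ox was 0.96 and 2.46, mean 1.71, and in wild type 1.13 and -0.20, mean 0.47. By limma its ABA effect was 1.09 (SE 0.32, adjusted p 0.165) and its genotype effect 0.97 (SE 0.32, adjusted p 0.684).

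NAC025, known from the endosperm, and NAC058 stayed within 2-fold, with mean ABA ratios in ZFP3ox of 0.74 and 0.30. EXPA2 and MAN7, cell wall genes of the endosperm that serve as its markers here, were both higher with ABA in both genotypes. EXPA2 had ABA ratios of 1.04 in ZFP3ox and 1.59 in wild type, and MAN7 1.26 and 2.05 in these genotypes. Their summed RPKM was 42.5 and 18.8 in ZFP3ox with and without ABA and 76.4 and 27.0 in wild type with and without ABA in set 1, and 15.8, 5.8, 29.7 and 5.04 in these samples in set 2. With ABA, these sums were thus lower in ZFP3ox in both sets, where NAC056 was higher. The photosynthesis genes were higher and 3 of the 4 seed storage and oil body genes lower in this comparison in the mean of both sets, as given above. The summed RPKM of those 4 was lower in ZFP3ox in set 1 only. The part of these markers in the NAC056 ratio was not tested.

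The 9 factors known from ABA, drought and senescence responses (NAC016, NAC019, NAC032, NAC047, NAC053, NAC055, NAC060, NAC096 and NAC102) held 1 ratio past 2-fold (higher with ABA in ZFP3ox, as were 4.55% of all features). Their median ABA ratio was 0.14 in ZFP3ox and 0.31 in wild type, near the medians of all features. The gene past 2-fold was NAC055, a stress and jasmonate factor that lies next to NAC056 on chromosome 3. NAC055 had 8.63 and 6.01 RPKM in ZFP3ox with and without ABA, and 6.14 and 5.56 RPKM in wild type with and without ABA in set 1. In set 2 the values were 3.53 and 0.42 RPKM in ZFP3ox with and without ABA, and 2.21 and 1.28 RPKM in wild type with and without ABA. As in NAC056, ZFP3ox with ABA was the highest sample in both sets. The ABA ratio in ZFP3ox was 0.46 in set 1 and 1.67 in set 2, mean 1.07, and in wild type 0.12 and 0.49, mean 0.31. Its value of 0.42 RPKM in set 2 lies at the 5th percentile of that column or below.

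NAC032, a stress-induced factor, had the lowest ratio of ZFP3ox over wild type with ABA. In set 1 it had 21.1 RPKM in ZFP3ox and 29.7 RPKM in wild type with ABA, and 30.4 and 22.5 RPKM without ABA in these genotypes. Set 2 held 3.83 RPKM in ZFP3ox and 11.3 RPKM in wild type with ABA, and 3.48 and 3.98 RPKM without ABA. The ratio of ZFP3ox over wild type with ABA was -0.48 in set 1 and -1.35 in set 2, mean -0.91, which is within 2-fold. Without ABA it was 0.42 and -0.15, and the ratio with ABA minus that without was -0.89 and -1.20, mean -1.05, under the 4-fold used for such a difference. NAC102, known from germination under low oxygen, was lower in ZFP3ox without ABA by -0.66 and -0.72, mean -0.69, with 21.0 RPKM in ZFP3ox against 33.8 RPKM in wild type in set 1 and 3.37 against 6.18 RPKM in set 2.

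ATAF1, an early stress NAC gene that has no NAC number in the table, was past 2-fold in a pair of comparisons. It had 34.0 and 27.1 RPKM in ZFP3ox with and without ABA, and 67.04 and 32.3 RPKM in wild type with and without ABA in set 1. Set 2 gave 7.66 and 9.27 RPKM in ZFP3ox with and without ABA, and 19.1 and 6.53 RPKM in wild type with and without ABA. Wild type with ABA was the highest sample in both sets. Its mean ABA ratio was 0.04 in ZFP3ox and 1.22 in wild type, and ZFP3ox over wild type with ABA was -1.09. Of 20 listed NAC genes under other symbols 18 were in the table. Besides ATAF1, these held NTL8, a membrane-bound factor, and XND1, which limits xylem differentiation, past 2-fold. Of the 18, 2 were higher with ABA in wild type (4.65% of all features were) and 1 in ZFP3ox (4.55%). In ZFP3ox over wild type with ABA 1 was lower (2.03%). NTL8 had an ABA ratio in wild type of 1.75 in set 1 and 0.50 in set 2, mean 1.13, and XND1 one in ZFP3ox of 1.58 and 0.74, mean 1.16.

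The 6 senescence factors stayed within 2-fold: NAC092 (ORE1) and NAC059 (ORS1), which promote leaf senescence, NAC042 (JUB1), which delays it, NAC046, NAC087 and NAC090. NAC046 went in opposite directions in the genotypes. It had 9.95 and 6.27 RPKM in ZFP3ox with and without ABA, and 8.20 and 10.4 RPKM in wild type with and without ABA in set 1. The set 2 values were 3.02 and 2.0 RPKM in ZFP3ox with and without ABA, and 2.03 and 5.04 RPKM in wild type with and without ABA. Wild type without ABA was the highest sample and ZFP3ox without ABA the lowest in both sets. The ABA ratio was 0.59 and 0.42 in ZFP3ox and -0.30 and -1.0 in wild type. Of 7 chlorophyll breakdown and senescence genes, SAG12, a senescence protease, was past 2-fold for ABA in ZFP3ox, with a mean of 1.09. That mean rests on set 2, where the ratio was 2.19, while in set 1 it was -0.02. Of all features 4.55% were higher with ABA in ZFP3ox by 2-fold.

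**Figure D5:**
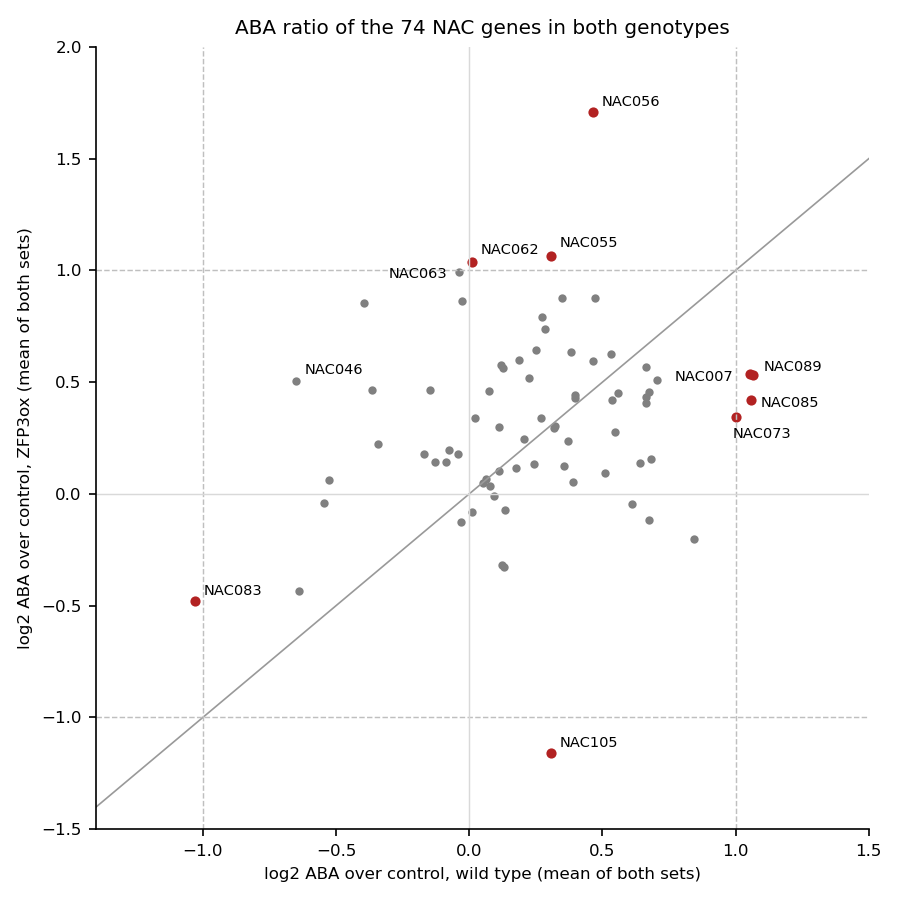
Mean log2 ABA ratio of the 74 NAC genes in wild type (x axis) and in ZFP3ox (y axis), with dashed lines at 2-fold and a line of equal ratio. Genes past 2-fold in either genotype are red. No gene is past 2-fold in both genotypes, and NAC105 (-1.16 in ZFP3ox) and NAC056 (1.71 in ZFP3ox) lie farthest from the other genes.

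The 8 membrane-anchored and organelle stress factors held 2 genes past 2-fold. Of the 8, 1 was higher in ZFP3ox over wild type with ABA (2.7% of all features were). For ABA over control 1 was higher in ZFP3ox (4.55%) and 1 in wild type (4.65%). NAC062 (NTL6), which is released from the membrane under stress, was highest in ZFP3ox with ABA. NAC062 had 21.3 and 17.2 RPKM in ZFP3ox with and without ABA, and 13.9 and 14.6 RPKM in wild type with and without ABA in set 1. In set 2 the values were 16.5 and 4.11 RPKM in ZFP3ox with and without ABA, and 5.52 and 5.11 RPKM in wild type with and without ABA. The mean ratio was 1.0 for ZFP3ox over wild type with ABA and 1.04 for ABA in ZFP3ox, and most of either came from set 2 (1.43 and 1.78). Its ABA ratio in wild type was 0.01.

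NAC089, which is tied to the endoplasmic reticulum and to cell death under protein folding stress, was higher with ABA in both genotypes and both sets. It had 15.0 and 9.03 RPKM in ZFP3ox with and without ABA, and 20.1 and 5.87 RPKM in wild type with and without ABA in set 1. Set 2 held 9.98 and 7.37 RPKM in ZFP3ox with and without ABA, and 8.93 and 5.97 RPKM in wild type with and without ABA. The ratio reached 2-fold in wild type (1.62 and 0.51, mean 1.07) and was 0.53 in ZFP3ox. The limma ABA effect was 0.80 (SE 0.25, adjusted p 0.179).

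NAC013 and NAC017, which carry the mitochondrial stress signal, and NAC078 and NAC053, regulators of proteasome genes, stayed within 2-fold. NAC017 had 70.8 RPKM in ZFP3ox with ABA against 24.4 to 31.6 RPKM in the other samples in set 1, but 5.54 RPKM against 7.6 to 8.47 RPKM in set 2. Of the 5 mitochondrial retrograde genes listed as their targets, AOX1A among them, 0 were past 2-fold. Of 6 proteasome genes 1 was, RPT2A, for ZFP3ox over wild type with ABA (-0.42 in set 1 and -1.68 in set 2, mean -1.05). In that comparison 2.03% of all features were lower by 2-fold. NAC069 (NTM2) and NAC014, also membrane-anchored, were within 2-fold.

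Of the 4 DNA damage, ribosome and protein folding stress factors, NAC085, which with NAC044 halts the cell cycle after DNA damage, was past 2-fold. This was for ABA in wild type, where 4.65% of all features were higher. NAC085 had 17.7 and 9.16 RPKM in ZFP3ox with and without ABA, and 12.8 and 6.50 RPKM in wild type with and without ABA in set 1. Set 2 gave 1.51 and 1.58 RPKM in ZFP3ox with and without ABA, and 5.71 and 1.85 RPKM in wild type with and without ABA. Its ABA ratio was 0.88 and 1.24 in wild type, mean 1.06, and 0.88 and -0.04 in ZFP3ox, mean 0.42. NAC044 was at -0.04 in wild type. NAC082, of the ribosome stress response, and NAC103, of the unfolded protein response, were within 2-fold.

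NAC063, whose role is not described here, was a low gene whose value in ZFP3ox with ABA lay above those in the other samples in both sets. It had 5.40 and 1.18 RPKM in ZFP3ox with and without ABA, and 1.11 and 1.16 RPKM in wild type with and without ABA in set 1. The set 2 values were 1.92 and 1.16 RPKM in ZFP3ox with and without ABA, and 1.01 and 1.07 RPKM in wild type with and without ABA. The 3 other samples lay between 1.01 and 1.18 RPKM in both sets. The ratio of ZFP3ox over wild type with ABA was 1.60 and 0.54, mean 1.07, and its ABA ratio in ZFP3ox, 0.99, lay just under 2-fold. The 5.40 RPKM in ZFP3ox with ABA in set 1 is below the 5th percentile of that column (7.31 RPKM). These values rest on about 16.2 reads in ZFP3ox with ABA and 4.03 to 5.40 reads in the other samples in set 1. Of its 50-base exon windows, 50.5% match another place in the genome within 2 mismatches, and its exons share 106 bases with SAP130a on the same strand. NAC067 and NAC093 also had over 50% of windows that match elsewhere, 63.2% and 51.4%, and the median of the 75 genes was 0.

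NAC048, NAC046, NAC006, NAC102 and NAC067 had the lowest ratios of ZFP3ox over wild type without ABA, at -0.85, -0.83, -0.74, -0.69 and -0.61. They were all lower in both sets and all within 2-fold. NAC006 passed the filter through wild type without ABA alone, the sample that its ratio sets ZFP3ox against. In set 2 it had 1.35 RPKM there and 0.32 RPKM in ZFP3ox without ABA, below the 5th percentile of that column (0.42 RPKM). In set 1 about 16.9 and 6.96 reads underlie its values in these samples. NAC048 was the widest between the sets, at -0.18 in set 1 and -1.52 in set 2. The highest after NAC105 were NAC061, NAC093, NAC038 and NAC049, at 0.65, 0.59, 0.54 and 0.49. The NAC093 mean rests on set 1, at 1.18 there and -0.0028 in set 2. With ABA the highest after the 3 past 2-fold were NAC057 and NAC066, at 0.72 and 0.56. The lowest after NAC032 were NAC050, NAC003, NAC087 and NAC085, at -0.75, -0.53, -0.53 and -0.49. Of these, NAC003 and NAC085 differed in sign between the sets. NAC003 was at 0.81 in set 1 and -1.88 in set 2, and NAC085 at 0.44 and -1.42.

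The remaining groups stayed within 2-fold in the mean of both sets. The phloem factors NAC020, NAC045 and NAC086 had ABA ratios of 0.43, 0.65 and 0.79 in ZFP3ox and 0.40, 0.25 and 0.27 in wild type. NAC1, an auxin-induced factor of lateral roots, and the miR164 targets NAC080 and NAC100 lay between -0.27 and 0.26 in the genotype comparisons. NAC050 and NAC052, partners of a histone H3 lysine demethylase, had ABA ratios in wild type of 0.68 and 0.19. NAC071, of tissue reunion after wounding, had 41.3 and 17.3 RPKM in ZFP3ox with and without ABA and 17.8 and 6.50 RPKM in wild type with and without ABA in set 1, but 0.50, 0.84, 1.38 and 1.35 RPKM in these samples in set 2. NAC035 (LOV1), a flowering time factor, had means between 0.06 and 0.09 in all 4 comparisons, but the sets differed in sign in each, for example 0.65 in set 1 and -0.52 in set 2 for ABA in wild type.

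Pairs of NAC genes that lie next to each other on a chromosome did not always have like values. Of the 9 neighbouring pairs, NAC055 and NAC056 were both past 2-fold for ABA in ZFP3ox. NAC046 and NAC047 had ABA ratios in wild type of -0.65 and -0.54, and in ZFP3ox of 0.51 and -0.04. The sets differed in sign for NAC047 in both genotypes. It was at -1.24 in set 1 and 0.15 in set 2 in wild type, and at -0.46 and 0.38 in ZFP3ox. NAC048 and NAC049 had genotype ratios without ABA of -0.85 and 0.49. The 75 genes lie on all 5 chromosomes, with 22 on chromosome 5, 21 on chromosome 1 and 20 on chromosome 3.

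The authors' deposited lists hold 3 of these genes, a share near or below that of all features. Their list of 803 genes higher with ABA, a number that is 3.36% of the features in the table, has NAC085 and NAC073, or 2.67% of the NAC genes. The values in the authors' deposited lists are signed fold changes and not on the log2 scale. For NAC085 and NAC073 the authors' deposited values are 2.53 and 2.43 for ABA in wild type and 1.44 and 1.35 for ABA in ZFP3ox. Their list of 543 genes lower with ABA (2.27% of the features) has NAC083, or 1.33% of the NAC genes, with values in the authors' deposited table of -2.40 in wild type and -1.46 in ZFP3ox, where a negative value stands for a fold decrease. The authors' deposited lists of 225 genes higher and 167 genes lower in ZFP3ox, 0.94% and 0.698% of the features, hold 0 of the 75 genes.

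Subtracting the genotype ratio without ABA from the one with ABA gave a difference of 4-fold or more for 0 of 74 NAC genes in either direction, where 0.336% of all features were higher and 0.185% lower. It was widest for NAC105 at -1.47 and, in the other direction, for NAC048 at 1.25 and NAC056 at 1.24. In set 1 alone NAC105 passed 4-fold, and in set 2 alone NAC056 did.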

How the data were processed

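RNA of whole seedlings was depleted of ribosomal RNA and sequenced as 50-base SOLiD reads, per the labels' protocols. The deposited table gives RPKM as the authors computed it, with 2 columns for each of 4 samples. Reads were matched by strand and in colour space with at most 2 mismatches and at most 10 places per read, and expression was taken per gene model with exon discovery on, per the authors' deposited settings. Program, version and genome build: not given in the sources used here. The authors' deposited gene lists hold signed fold changes, a score made by the authors that is negative for a decrease and never between -1 and 1. All 75 features matched a RefSeq gene, 70 by a locus code, 1 by symbol and 4 by symbol and position. Of 271 positions in feature names, all overlap a gene of TAIR10.1, 269 with the same symbol, which places the files on that assembly's coordinates. Only 111 of the 271 share a start or end with the gene there. The authors' gene models can thus differ from those used here for exon lengths, read estimates and promoter windows. Ratios are differences of log2(RPKM + 1) within a column set, averaged over both sets, counted at 2-fold (4-fold for the difference of the genotype ratios) over features with at least 1 RPKM in both columns of a sample. limma 3.58.1 in R 4.3.3 was fitted across all 22646 features with Benjamini-Hochberg adjustment at 0.05. A run on simulated data, with equal noise for all genes, checked the size of the fitted ABA effect. It cannot check the p of the real fit, because its noise was not taken from replicates. Columns used for no sample here numbered 0. Exon windows of 50 bases were matched to the genome with bwa 0.7.19 at up to 2 mismatches, and sequences were cut with pysam from a copy indexed by samtools 1.23.1. Named genes are those past the fold rule, the 5 highest and 5 lowest ratios and the 5 highest levels, genes in the authors' lists and the genes of the role groups. The genes, role groups and target lists were chosen with earlier results of these data known. Alternatives were pseudocounts of 0.1 and 5 RPKM, no filter, median-of-ratios scaling, either column set alone and, for limma, a trend in the variance and the 8 columns as libraries.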

Additional observations from a re-analysis of the deposited data

Results flagged for a closer look

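3 genes went in opposite directions, in both column sets, between the genotypes or between the treatments, with at least 2-fold between the mean log2 ratios. None of these differences was tested, since each group has 1 sample. NAC046 was higher with ABA in ZFP3ox (0.59 in set 1 and 0.42 in set 2) and lower with ABA in wild type (-0.30 and -1.0), a difference of 1.16. Over the same 4 samples its genotype ratio was 0.25 and 0.41 with ABA and -0.64 and -1.01 without ABA, again a difference of 1.16. NAC063 was higher with ABA in ZFP3ox (1.55 and 0.43) and at -0.03 and -0.04 in wild type, a difference of 1.03, with about 4.03 to 5.40 reads behind its set 1 values in the samples other than ZFP3ox with ABA. NAC048 had a genotype ratio of 0.79 and 0.01 with ABA and of -0.18 and -1.52 without ABA, a difference of 1.25. In all, 6 of 74 NAC genes had ABA ratios of opposite sign in the genotypes in both sets, where 6.35% of all features did, and 8 had genotype ratios of opposite sign in the treatments in both sets, where 8.52% did. With at least 2-fold between the means as well, there were 2 NAC genes for each, against 2.05% and 2.68% of all features, so the NAC shares are near those of all features.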

How the results depend on the processing

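No paired analysis was possible because each group has 1 sample, and for the same reason no sample could be left out. The choice of column set moved the counts most. In set 1 alone, 7 NAC genes were higher in ZFP3ox without ABA (8.37% of all features were), 11 were higher with ABA in ZFP3ox (8.28%), and in wild type ABA gave 15 higher (12.2%) and 2 lower (4.86%), while 1 (NAC105) had a difference of genotype ratios lower by 4-fold (1.03%). In set 2 alone, 0 were higher (1.07%) and 3 lower (9.46%) in ZFP3ox without ABA, 4 were lower in ZFP3ox with ABA (6.16%), 2 were lower with ABA in ZFP3ox (2.42%) and 2 in wild type (5.88%), and 1 (NAC056) had a difference higher by 4-fold (2.53%). With a pseudocount of 0.1 RPKM, 3 were lower in ZFP3ox without ABA (3.01%), 1 was lower in ZFP3ox with ABA (2.84%) and 7 were higher with ABA in ZFP3ox (8.37%). With a pseudocount of 5 RPKM, 1 (NAC056) was higher in ZFP3ox with ABA (1.13%), 1 (NAC056) was higher (1.35%) and 0 lower (1.34%) with ABA in ZFP3ox, and for ABA in wild type 0 were higher (1.9%) or lower (1.63%). Median-of-ratios scaling left 1 (NAC056) higher in ZFP3ox with ABA (2.1%), 1 (NAC056) higher with ABA in ZFP3ox (2.42%) and 0 higher with ABA in wild type (3.1%). The other counts stayed within 1.5 times, and the cause of the moves was not tested. Under 8 alternatives to the limma fit, 0 NAC genes were called for either effect. At an unadjusted p under 0.05 there were 3 to 32 for the ABA effect, where 7.79% to 29% of all features had such a p, and 1 to 12 for the genotype effect, where 4.89% to 15.1% did. The 32 and the 12 came from set 1 alone, with 29% and 15.1% of all features. Over these alternatives limma called 2 to 661 features for ABA and 0 to 6 for the genotype. No NAC gene ratio past 2-fold in the mean of both sets changed its sign under these alternatives. SAG12, past 2-fold for ABA in ZFP3ox, was at -0.02 in set 1 alone. NAC070, within 2-fold in the mean, was past it in opposite directions in the sets for ABA in ZFP3ox (1.04 in set 1 and -1.91 in set 2). The depth of set 2 is unknown, and in set 1 the lowest NAC gene value rests on about 4.03 reads.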

Other observations

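NAC070 (BRN2) was the highest NAC gene in the samples without ABA in set 2, at 109 RPKM in ZFP3ox and 80.6 RPKM in wild type, and was at 4.72 and 4.85 RPKM in these samples in set 1. NAC071 was the opposite case, with a mean level difference of -3.20 on the log2 scale in set 2 relative to set 1, at percentile 3.70 of all features. Of the exon windows of 50 bases of both genes, 0 match elsewhere, while over 10% of the windows match elsewhere in 9 of the 75 genes, and neither overlaps an exon of another annotated gene. Exons of 11 of the 75 genes overlap a gene on the opposite strand.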
